A study of Drosophila melanogaster with 3 samples.

Results

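The chemosensory receptor genes are the protein-coding genes of the fly annotation whose symbol starts with Or (odorant receptors), Gr (gustatory receptors) or Ir (ionotropic receptors) followed by a digit. There were 179 of them among 13945 protein-coding genes: 59 Or, 60 Gr and 60 Ir. Membership rests on the gene symbol and uses no measured value. The genes were scored for peaks of CoRest, the scaffold of a corepressor complex that joins a histone demethylase to a histone deacetylase. Binding was read from ChIP-seq (sequencing of immunoprecipitated chromatin), in which CoRest with green fluorescent protein (GFP) at its C terminus was pulled down by an antibody against GFP. The material was whole embryos of both sexes, 0 to 24 hours old, of a stable transgenic Drosophila melanogaster line, and the 3 biological replicates form a single group. Whole embryos mix all cell types and a full day of development, so binding in few cells and weak binding in many cannot be told apart.

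Odorant receptors are ligand-gated channels of olfactory neurons, each built from a tuned Or subunit and the shared co-receptor Orco. Gustatory receptors serve sweet and bitter taste, and a pair of them, Gr21a and Gr63a, forms the carbon dioxide receptor of the antenna. Ionotropic receptors derive from glutamate receptors and detect acids, amines, temperature and humidity, mostly together with the co-receptors Ir8a, Ir25a or Ir76b. A sensory neuron switches on only few receptor genes and holds the others silent. The chromatin regulators Myb-MuvB and dREAM are known to act on the carbon dioxide receptor genes of the fly.

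The question addressed here is which of these genes had CoRest peaks at their start sites or in their bodies. A promoter summit is a peak's deposited summit within 500 bp of any annotated start site of a gene. The list thresholded by the authors on reproducibility held 8721 peaks, and the pooled list and each replicate list held 30000. Shares in the replicates refer to the 8721 strongest peaks of each, so that all lists have the same length, unless the full lists are named. Peaks were ranked by the authors' signal within each list (rank 1 is the strongest). Of the thresholded peaks, 7676 (88.0%) had a summit within 100 bp in all 3 full replicate lists. Read depth is unknown here, and the intervals and limits given with shares reflect counting error alone.

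The sequences that carry the main exceptions and contrasts are shown first, read from the RefSeq Release 6 assembly (dm6). The first is the whole stretch between the start sites of Gr63a and Lamtor4 (chr3L:3896604-3896899, plus strand, 296 bases). It holds a thresholded receptor promoter summit, and its capitals run from the lowest to the highest summit of the pooled and replicate lists.
Gr63a-Lamtor4: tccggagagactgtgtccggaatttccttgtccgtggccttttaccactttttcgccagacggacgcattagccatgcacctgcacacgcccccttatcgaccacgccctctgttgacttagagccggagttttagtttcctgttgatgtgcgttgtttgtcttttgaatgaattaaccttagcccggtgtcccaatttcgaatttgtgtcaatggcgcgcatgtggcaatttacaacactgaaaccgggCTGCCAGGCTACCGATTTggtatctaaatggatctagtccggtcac
The 18 capitals, bases 251 to 268 of the stretch, lie toward its Lamtor4 end, and Gr63a begins at the other end. The next sequence covers 100 bases on each side of the pooled summit in an intron of Ir92a (chr3R:20340622-20340822, plus strand), a receptor body peak that recurred in all 3 replicates. Its capitals mark the 10 bases that hold the summits of the pooled list and all 3 replicates.
Ir92a-intron: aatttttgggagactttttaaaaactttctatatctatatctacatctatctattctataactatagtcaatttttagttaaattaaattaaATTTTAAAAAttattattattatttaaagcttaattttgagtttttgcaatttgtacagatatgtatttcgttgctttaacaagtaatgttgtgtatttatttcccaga
This stretch had a GC content of 19.9%, against 50% in the stretch at Gr63a. For contrast, the 250 bases upstream of Tsp97E, a bound tetraspanin gene beside Gr97a, are given with the letters TATCGATA (the core of the DNA replication-related element, DRE) in capitals (chr3R:26964818-26965067, minus strand).
Tsp97E: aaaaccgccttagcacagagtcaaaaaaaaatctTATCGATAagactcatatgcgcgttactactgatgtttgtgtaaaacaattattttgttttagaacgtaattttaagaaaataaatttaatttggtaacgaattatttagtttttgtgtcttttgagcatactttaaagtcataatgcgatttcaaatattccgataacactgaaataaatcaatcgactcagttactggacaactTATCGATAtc
No receptor gene had these letters in the 250 bases upstream of its outermost start site. Of genes with a thresholded promoter summit, 13.4% had them there. The 100 bases upstream of 2 odorant receptor genes without a promoter summit follow, Or67d (chr3L:10273104-10273203, plus strand) and Or85a (chr3R:8321647-8321746, plus strand). Capitals show the letters TATAAA, which most Or genes had within 250 bases upstream. Here they stand at bases 35 to 40 and 18 to 23, farther upstream of the annotated start site than -45 to -15 bp, where a TATA box usually lies. Only 9 of 59 Or genes had them there. Neither Or67d nor Or85a has an annotated 5′ untranslated region, so their distances were counted from the first coding base. The distance from the true start of transcription is unknown here. The 100 bases upstream of Or22a were also read and had no match.
Or67d: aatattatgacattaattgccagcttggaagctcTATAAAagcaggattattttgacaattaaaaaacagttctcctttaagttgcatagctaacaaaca
Or85a: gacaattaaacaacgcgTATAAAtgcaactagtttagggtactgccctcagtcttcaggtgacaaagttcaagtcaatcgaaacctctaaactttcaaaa

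CoRest summits were nearly missing from receptor promoters. A thresholded promoter summit lay at 2 of 179 receptor genes (1.12%; exact Clopper-Pearson 95% interval 0.136 to 3.98%), namely Gr63a and Ir60e, against 35.4% of all protein-coding genes. Among the strongest peaks of each replicate the count was again 2 in every replicate, a share of 1.12% ± 0 (SD, n = 3). The share of all genes was 36.2% in replicate 1, 36.6% in replicate 2 and 33.6% in replicate 3 (35.5% ± 1.63, SD, n = 3). These were Gr63a and Ir60e in replicates 1 and 2, and Ir60e and Gr21a in replicate 3. The difference was -34.3 percentage points ± 1.63 (SD, n = 3), and the receptor share was the lower in 3 of 3 replicates (exact 2-sided sign-flip permutation test over replicates, p = 0.25, the smallest that 3 replicates allow).

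With longer lists a few more receptor genes had a promoter summit. In the pooled list 8 receptor genes (4.47%) had a promoter summit, against 51.8% of all genes. The full replicate lists gave 7, 8 and 14 receptor genes, a share of 5.40% ± 2.12 (SD, n = 3), against 52.7% ± 2.28 of all genes (SD, n = 3). Replicate 3 was the highest of the 3 for receptors. Only 6 receptor genes (3.35%) had a promoter summit in at least 2 full replicate lists, where 52.5% of all genes did. In all 3 lists there were 3, Gr21a, Gr63a and Ir60e (1.68%), where 42.8% of all genes qualified. A further 14 receptor genes (7.82%) had a promoter summit in 1 replicate only, near the 10.3% of all genes that did. No promoter summit in any replicate was found at 159 of the 179 (88.8%), against 37.1% of all genes.

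The annotation of receptor genes differs from that of most genes. Of the 179 receptor genes, 130 (72.6%) had no annotated 5′ untranslated region, so their annotated start site is the first coding base, against 3.52% of all genes. All protein-coding genes without such a region, the receptors included, had a thresholded promoter summit at 15 of 491 (3.05%), and the receptors among them at 2 of 130 (1.54%). Of the 49 receptor genes with an annotated 5′ untranslated region, 0 had a thresholded promoter summit, which allows a share of up to 6.12%, against 36.5% of all genes with one. Among the strongest peaks of each replicate the 49 had 0.680% ± 1.18 (SD, n = 3) and all such genes 36.6% ± 1.67 (SD, n = 3). Hence the shares differed as widely among genes with an annotated 5′ untranslated region, while among those without it the share of all genes was itself near that of the receptors.

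Receptor genes also had fewer start sites and fewer shared promoters than other genes. A single start site was annotated at 93.3% of receptor genes and 73.5% of all genes, and another gene's start lay within 500 bp at 12.3% and 30.9%. Weighting all genes to the receptors' classes of start-site number and shared starts gave a thresholded all-gene share of 24.5% (24.5% ± 1.39 over replicates, SD, n = 3). The median GC content of the 300 bases upstream was 37.7% for receptors and 37% for all genes, and weighting all genes to the receptors' GC classes gave 35.6%. Around receptor start sites 31-base sequences were nearly all unique in the assembly. Fewer than 80% were unique at 3 genes, the twins Or19a and Or19b at 15.9% and Ir40a at 69.3%.

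**Figure D1:**
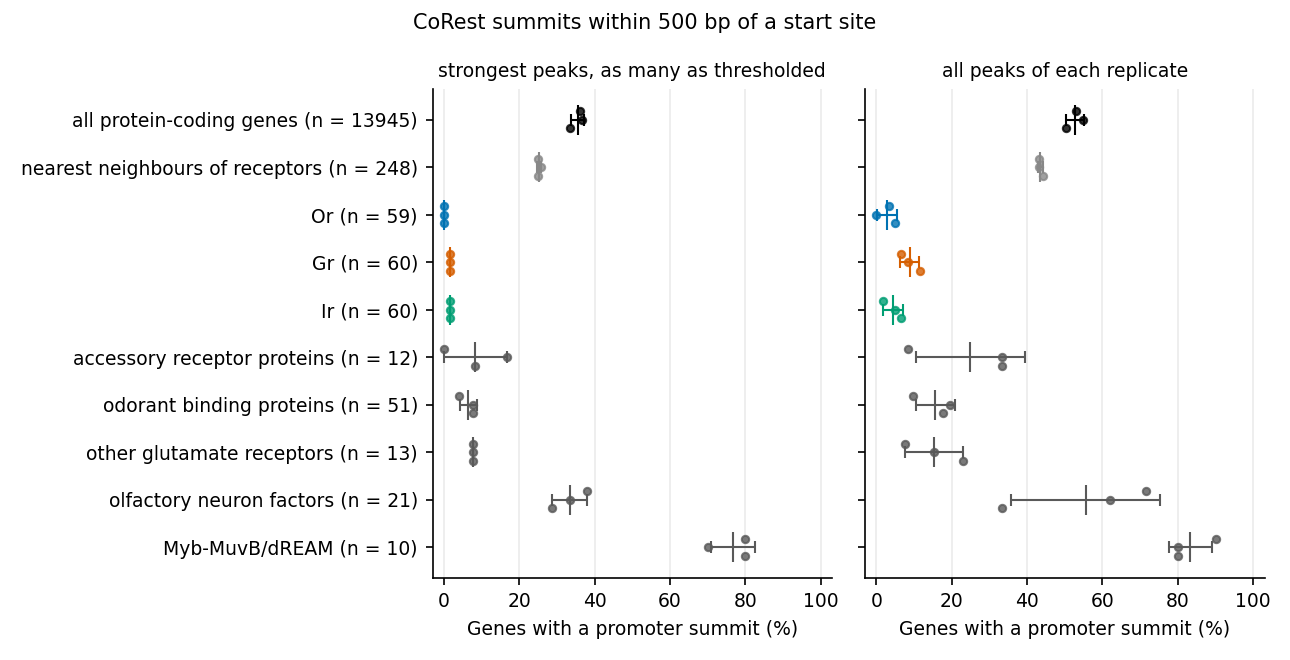
Share of genes with a CoRest summit within 500 bp of a start site (x axis, percent) for each gene list (y axis), in the strongest peaks of each replicate (left) and all its peaks (right). Points are the 3 replicates, the vertical stroke is their mean and the bar ± SD. The 3 receptor families sit between 0 and 1.67% on the left, all genes between 33.6 and 36.6% and Myb-MuvB/dREAM genes between 70 and 80%.

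The 3 families differed by a single gene. No Or gene had a thresholded promoter summit, and 0 of 59 allows up to 5.08%, while 1 of 60 Gr genes and 1 of 60 Ir genes did. In the strongest peaks of each replicate, the Or share was 0% in every replicate and the Gr and Ir shares were 1.67% ± 0 (SD, n = 3). Or minus Gr and Or minus Ir were each -1.67 percentage points in 3 of 3 replicates (exact 2-sided sign-flip permutation test, p = 0.25, 0.375 after Benjamini-Hochberg adjustment over 3 family pairs), a difference of 1 gene. Gr minus Ir was 0 (p = 1 by the same exact test). In the full replicate lists Gr stood highest, with 4, 5 and 7 genes (8.89% ± 2.55, SD, n = 3). Ir genes numbered 1, 3 and 4 (4.44% ± 2.55, SD, n = 3) and Or genes 2, 0 and 3 (2.82% ± 2.59, SD, n = 3). The Or and Ir ranges overlapped and the lowest Gr value equalled the highest Ir value. No Or gene recurred in a second replicate, while 4 Gr and 2 Ir genes did.

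Gr63a, which encodes part of the carbon dioxide receptor, had the receptor promoter peak of highest pooled rank. The gene lies on 3L (3894999 to 3896603, minus strand), and its thresholded peak at 3896649 to 3897092 had rank 7043 in the pooled list. The peak had rank 5278 in replicate 1, 7780 in replicate 2 and 12241 in replicate 3, so replicate 3 alone fell outside the strongest 8721. Its summit lay 268 bp upstream of Gr63a and 29 bp upstream of Lamtor4, a gene of the Ragulator complex at the lysosome that runs the other way. Over the replicates the summit stood at -262 bp ± 9.54 from Gr63a (SD, n = 3), in the capitals of the first sequence above. Of the core promoter letters searched there, DRE (TATCGATA) and TATAAA had no match, and CGATA had 1 on the other strand at bases 96 to 100. The initiator letters TCAGT had 1 match on the other strand at bases 239 to 243, close to the capitals. GAGAG had 1 match as printed at bases 5 to 9. The letters GGTCACACT, the core of the motif 1 binding protein (M1BP) site, cross the Lamtor4 start site itself, from 6 bases before it. A weaker peak lay inside Lamtor4 at pooled rank 26902.

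Ir60e, an ionotropic receptor, was the other thresholded case and had the same layout. The gene lies on 2R (24529554 to 24531272, minus strand) and its peak at 24531369 to 24531812 had pooled rank 7668. The rank was 7827 in replicate 1, 8674 in replicate 2 and 6212 in replicate 3, within the strongest 8721 each time. The summit lay 319 bp upstream of Ir60e but 3 bp from the start site of CG13585, which runs the opposite way. Its position over replicates was -300 bp ± 30.8 from Ir60e (SD, n = 3). In both cases the summit was nearer to the start site of the neighbour than to that of the receptor.

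Shared windows held both thresholded receptor summits. Of the 22 receptor genes with another protein-coding gene's start within 500 bp, 2 (9.09%) had a thresholded promoter summit. The share of all genes with such a start was 60.1%. For some of the 22 the other gene is itself a receptor gene, as with Gr58a and Gr58b, Gr59e and Gr59f, or Or10a and Gr10a. Of the 157 receptor genes without another gene's start there, 0 had a thresholded promoter summit (up to 1.91%), against 24.3% of all genes of that kind. In the strongest peaks of each replicate these 157 had 0.212% ± 0.368 (SD, n = 3), which is Gr21a in replicate 3, against 24.4% ± 1.31 (SD, n = 3).

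**Figure D2:**
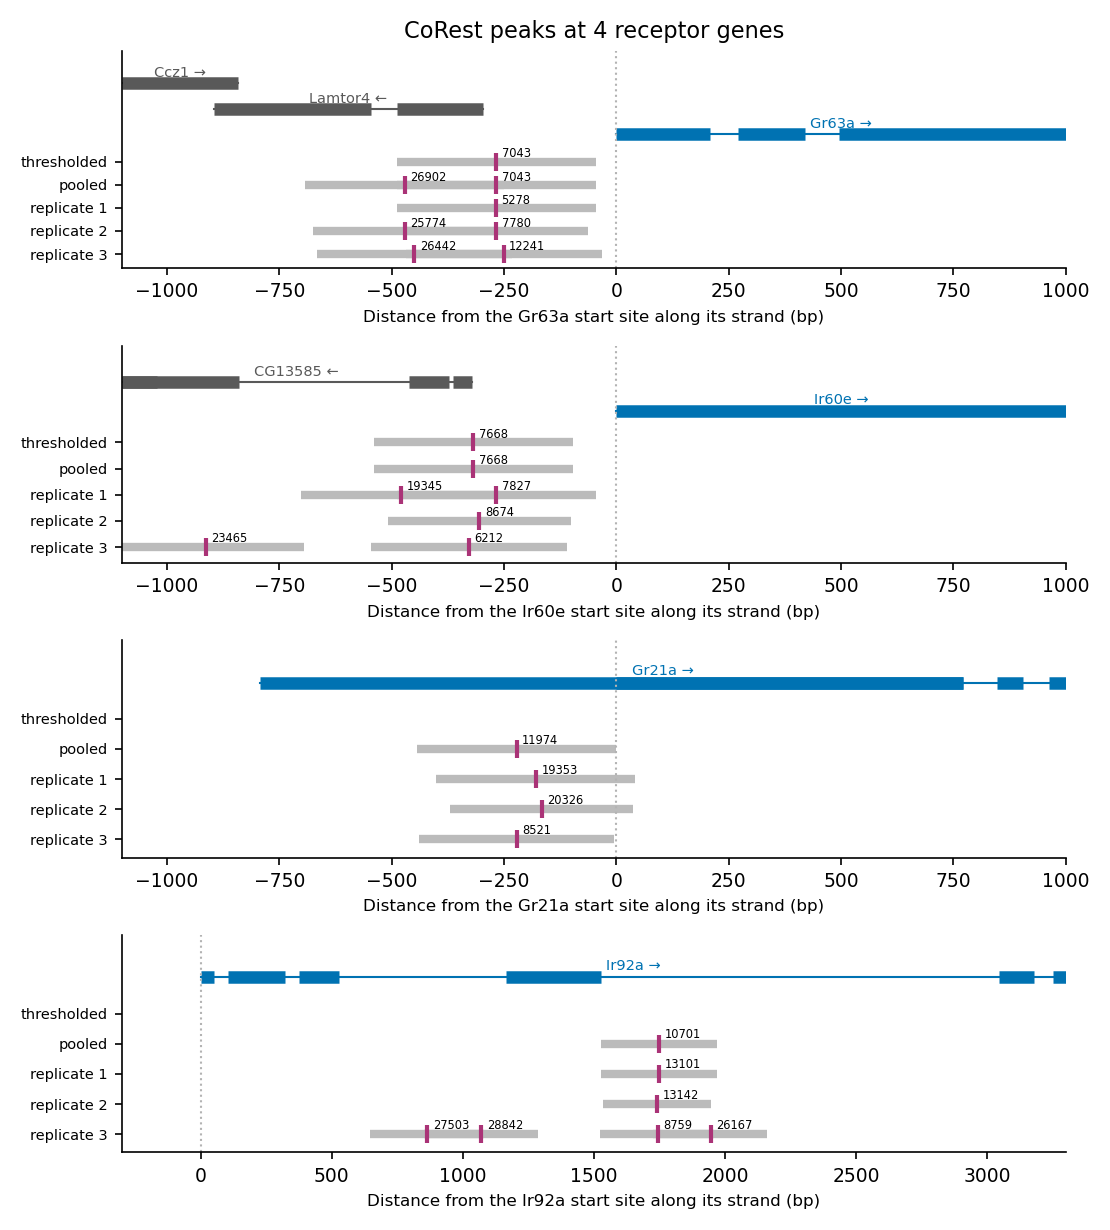
Peaks (grey bars), their summits (purple strokes, with the rank in the list beside each) and protein-coding genes (exons as boxes, arrows for the strand) at Gr63a, Ir60e, Gr21a and Ir92a, by list; x axis, distance along the receptor's strand from its start site in bp (for Gr21a the downstream start site). Summits at Gr63a and Ir60e sit at the neighbour's end of the gap, 268 and 319 bp upstream, those of Gr21a lie upstream with no other gene near, and those of Ir92a about 1749 bp into the gene.

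Gr21a, the partner of Gr63a in the carbon dioxide receptor, had a recurrent peak below the authors' threshold. The gene lies on 2L (780482 to 782885, plus strand) with 2 start sites. Its peak had rank 11974 in the pooled list, 19353 in replicate 1, 20326 in replicate 2 and 8521 in replicate 3. Replicate 3 alone placed it among the strongest 8721. The summit lay 222 bp upstream of the downstream start site in the pooled list and 179, 166 and 222 bp upstream in replicates 1, 2 and 3 (mean -189 bp ± 29.3, SD, n = 3). It fell within the first exon of the longer transcript, and no other protein-coding start lay within 500 bp. Thus both subunit genes of the carbon dioxide receptor had a promoter summit in all 3 full replicate lists, as did 42.8% of all genes. Only that of Gr63a passed the threshold, and it lay nearer to the start site of Lamtor4. The Gr21a summit counted through the downstream start site alone.

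Another 3 receptor genes had a promoter summit in 2 of 3 full replicate lists, all well below the threshold. Gr39b (2L, 21367908 to 21369706) had one 430 bp upstream at pooled rank 16152, with ranks 14057 in replicate 1 and 14977 in replicate 3. Ir67c (3L, 10432384 to 10434105) had one 276 bp upstream at pooled rank 19035, with ranks 15858 in replicate 2 and 16228 in replicate 3. Gr77a (3L, 20737569 to 20739430) had one 139 bp upstream at pooled rank 24528, within an intron of CG13252, with ranks 24338 in replicate 2 and 23881 in replicate 3. None of the 3 had another protein-coding start within 500 bp of the summit. The pooled list also placed a summit at Gr61a, a sugar receptor, at rank 26950, whose window holds the start of the JmjC gene JMJD5. It placed another at Gr97a at rank 11749, in a window with the start of CG5521.

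**Figure D3:**
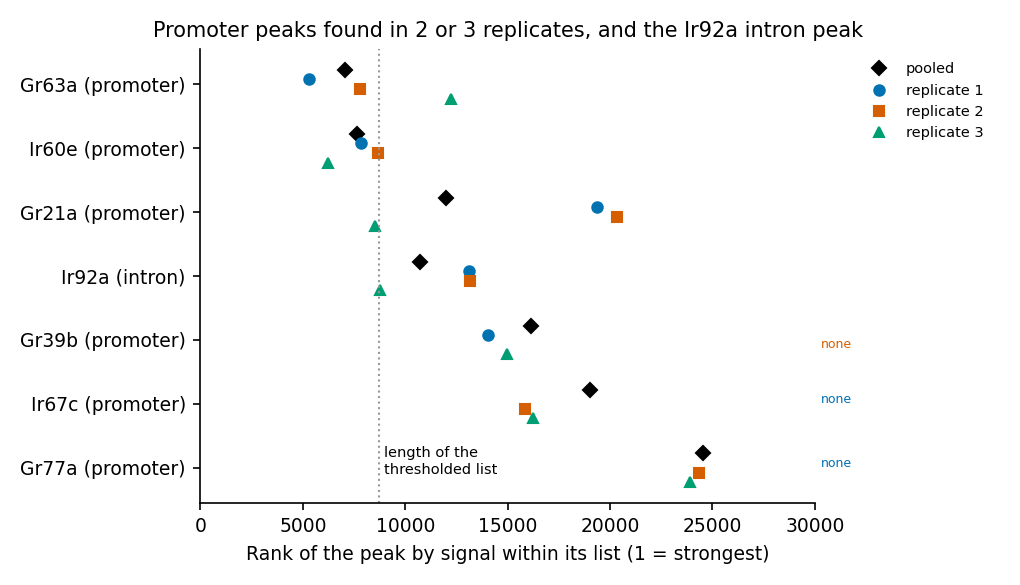
Rank of each peak by signal within its list (x axis, 1 is the strongest of 30000) for the 6 receptor genes with a promoter summit in 2 or 3 full replicate lists and for the Ir92a intron peak (y axis), by list (symbols); "none" marks a list without the summit and the dotted line the length of the thresholded list. Ir60e lies left of the line in every replicate, Gr63a in 2 of 3, and Gr21a in replicate 3 only.

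Receptor genes with well known roles mostly had their nearest thresholded summit kilobases away. Among odorant receptors, Or42b, tuned to food odours, had it at 40861 bp, and Or22a, tuned to fruit esters, at 28467 bp. Or67d, the receptor for the pheromone cis-vaccenyl acetate, had it at 10246 bp, and Or56a, the receptor for geosmin, at 34852 bp. Or47b had it at 13530 bp and Or85a at 8570 bp. None of these 6 had a promoter summit in the thresholded, pooled or replicate lists.

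No sweet or bitter taste receptor gene had a thresholded promoter summit. Of 9 sugar receptor genes 0 had a thresholded promoter summit, which allows a share of up to 33.3%, and 1, Gr61a, had one in the pooled list. The shares of all genes were 35.4 and 51.8%, and 9 genes are too few to set the group apart from them or from other receptors. The trehalose receptor gene Gr5a was 1391 bp from a thresholded summit, the sugar co-receptor gene Gr64f 4654 bp and the fructose receptor gene Gr43a 14750 bp. Of 5 widely expressed bitter receptor genes none had a promoter summit in the thresholded or pooled list. Among them Gr66a was 2115 bp from a thresholded summit and Gr33a 18916 bp. Gr32a was 754 bp from one, whose summit lay 199 bp upstream of Idua, a lysosomal hydrolase gene. Gr28b, with 5 start sites, was 13373 bp from one, and Gr68a 29655 bp.

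The ionotropic co-receptors had none either. The co-receptor genes Ir25a, Ir76b and Ir8a were 2566, 1636 and 7022 bp from a thresholded summit, and none had a promoter summit in the thresholded, pooled or replicate lists. The summit near Ir76b lay 323 bp upstream of CG14187. Of the 4 temperature and humidity receptor genes, Ir21a was 41741 bp away, Ir40a 25407 bp, Ir68a 10790 bp and Ir93a 9415 bp. Ir68a alone of the 4 had a promoter summit, in replicate 2 at rank 20019. The acid receptor genes Ir64a and Ir75a were 14699 and 13104 bp away and Ir84a, which responds to phenylacetic acid, 60224 bp. Of 17 antennal Ir genes 0 had a promoter summit in the thresholded or pooled list (up to 17.6%), against 35.4 and 51.8% of all genes and 1.12 and 4.47% of all receptor genes.

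Receptor gene bodies held no thresholded summit. The spans of the 179 genes cover 0.467 Mb and held 0 thresholded summits, which allows up to 6.43 per Mb, against 49.9 per Mb over all gene spans. No receptor gene had a thresholded summit in its span, where 16.7% of all genes did. Of all genes with 1 start site 7.44% did, against 0 of 167 receptor genes of that kind (up to 1.80%). The median span was 1691 bp for receptors and 2166 bp for all genes. Among the strongest peaks of each replicate the only summit in a receptor span was that of Gr21a in replicate 3. This gave 0.714 per Mb ± 1.24 against 50.8 per Mb ± 1.75 over all gene spans (SD, n = 3). The difference of -50.1 per Mb ± 1.5 (SD, n = 3) had the same sign in 3 of 3 replicates (exact sign-flip permutation test, p = 0.25). In the pooled list 9 receptor genes (5.03%) held a summit, against 32.6% of all genes, and 3 of these 9 summits lay in introns. They were Gr21a, Gr39b, Gr61a, Or33c, Or45b, Ir11a, Ir41a, Ir68a and Ir92a.

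Ir92a, a receptor for ammonia, held one that recurred in all 3 replicates. The gene lies on 3R (20338973 to 20343902, plus strand) and its intronic peak had rank 10701 in the pooled list. The rank was 13101 in replicate 1, 13142 in replicate 2 and 8759 in replicate 3, just outside the strongest 8721 in the last. The summit stood 1744.67 bp ± 4.73 downstream of the start site (SD, n = 3), within the capitals printed above. Replicate 3 held a further 3 weaker summits in the same gene. Both neighbours of Ir92a, the deacetylase gene Sirt2 and the metallothionein gene MtnC, had thresholded promoter summits, 167 and 369 bp from their start sites. In Ir41a, whose span of 104437 bp is mostly intron, a summit recurred in replicates 1 and 3 at ranks 17478 and 20623.

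Where a thresholded summit came near a receptor gene, the start site of a gene that is no receptor was mostly nearer. This was not compared with other genes. A thresholded summit lay within 2 kb of 17 receptor genes (9.50%), against 45.6% of all genes. These were 16 distinct peaks, and for 13 of the 17 genes the start site nearest to the summit belonged to a gene that is no receptor, within 500 bp in 10 cases. The strongest was at pooled rank 1272, 603 bp upstream of Or88a and 521 bp upstream of CG12402. Next came the peak at rank 1535, 1372 bp downstream of the start of Gr89a and past the end of that gene, for which no other start site was nearer, and the Gr32a and Idua peak at rank 1645. Or85f lay 1967 bp from the peak of CG34117 at rank 1912. Or46a and Or9a lay 1547 and 1012 bp from the peaks of CG18011 (rank 2342) and Neb-cGP (rank 2379). Gr39b, Gr59a and Gr97a had the peaks of CG8665, the arginine methyltransferase gene Art7 and Tsp97E at 1357, 1339 and 1404 bp. These peaks recurred in all 3 replicate lists, except that those near Ir94c and Gr93a were each missing from 1 replicate.

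The distance to the nearest thresholded summit was largest for odorant receptors. The median distance was 10790 bp for receptor genes and 2682 bp for all genes. By family the median was 13564 bp for Or, 9661.5 bp for Gr and 8903 bp for Ir. In the strongest peaks of each replicate the family medians were 15029 bp ± 1474 for Or, 9367 bp ± 533 for Gr and 8881 bp ± 806 for Ir (SD, n = 3). The Or median was above both others in each replicate, the Gr and Ir ranges overlapped, and these distances were not tested. Within 10 kb of a thresholded summit were 35.6% of Or, 51.7% of Gr and 53.3% of Ir genes, against 75.4% of all genes. By 50 kb the shares were 98.3, 95 and 95%, against 97.3%. The farthest genes were Ir41a at 88366 bp and Ir84a at 60224 bp.

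**Figure D4:**
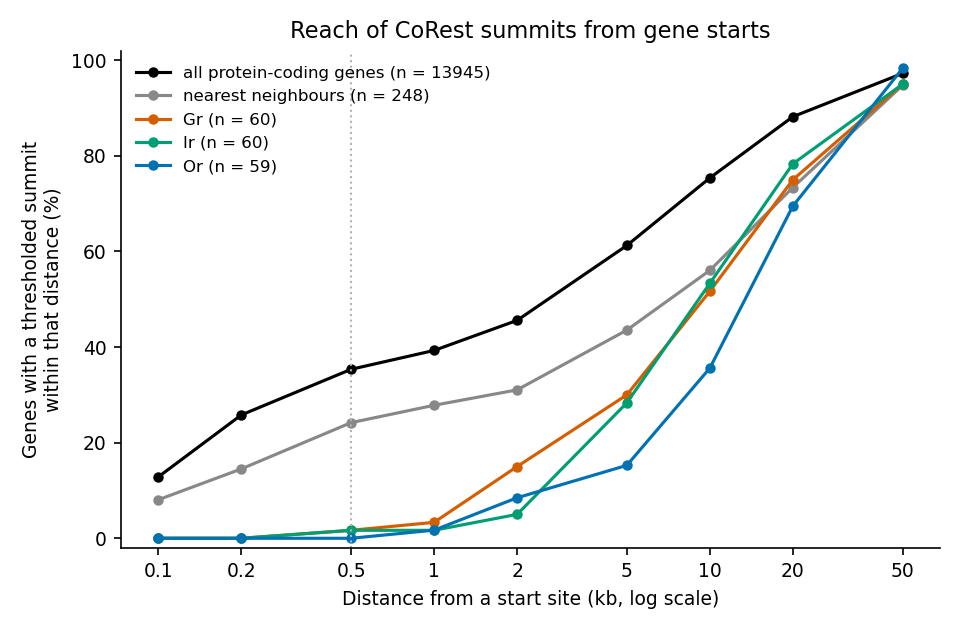
Cumulative share of genes (y axis, percent) with a thresholded summit within a given distance of a start site (x axis, kb, log scale) for all genes, the nearest neighbours of receptor genes and the 3 families; the dotted line marks 0.5 kb. The receptor curves stay under 4% up to 1 kb, where all genes reach 39.3%, and meet the others at 50 kb.

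The share of genes next to receptors with a promoter summit lay between that of the receptors and that of all genes. The nearest protein-coding genes on either side that are no receptors numbered 248, and 60 (24.2%) had a thresholded promoter summit, against 35.4% of all genes. In the strongest peaks of each replicate their share was 25.3% ± 0.466 (SD, n = 3), and receptors minus neighbours was -24.2 percentage points ± 0.466 (SD, n = 3), lower in 3 of 3 replicates (exact sign-flip permutation test, p = 0.25). Neither neighbour had a thresholded promoter summit for 106 receptor genes, 1 was for 65 and both were for 8. Those 8 were Gr63a, Or71a, Or85f, Ir92a and Gr93a to Gr93d, which share the neighbours CASK, a synaptic scaffold gene, and glec. The neighbours' median distance to a thresholded summit was 7236 bp, against 2682 bp for all genes.

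Clustered and single receptor genes both had few promoter summits. Receptor genes that directly follow each other formed 28 arrays with 80 genes, of up to 6 genes each, and none of the 80 had a thresholded promoter summit (up to 3.75%). Of the 99 receptor genes outside arrays 2 had one (2.02%), against 35.4% of all genes. Between the ends of the arrays 24 held no summit even in the pooled list, among them the 6 sugar receptor genes from Gr64a to Gr64f over 10.8 kb. Of the 4 with a pooled summit, Gr22e to Gr22a, Or33a to Or33c and Or65a to Or65c held 1 each. The array Gr93a to Gr93d on 3R was the only one with thresholded summits, 3 of them beside 10 pooled ones in 14.2 kb. All 3 thresholded summits lay in the gap between Gr93a and Gr93b. The one at pooled rank 4357 stood 3935 bp from the Gr93b start and recurred at ranks 4625, 4327 and 4676. The other pair, at ranks 3646 and 6048, had a summit within 100 bp in 1 and 2 replicates.

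Letters of known core promoter motifs differed between the families. In the 250 bases upstream of the outermost start site, on both strands, the DRE letters TATCGATA occurred at 0 of 179 receptor genes (up to 1.68%) and at 8.0% of all genes, and at 13.4% of genes with a thresholded promoter summit. The M1BP core GGTCACACT occurred at 0 of 179 receptor genes and at 3.12% of all genes. CGATA, the core bound by the insulator protein BEAF-32 and contained in every DRE match, occurred at 27.4% of receptor genes and 42.6% of all. By family it occurred at 16.9% of Or, 25% of Gr and 40% of Ir genes. TATAAA occurred at 71.2% of Or, 26.7% of Gr and 50% of Ir genes, against 43.0% of all genes. On the gene's own strand between -45 and -15 bp, where a TATA box usually lies, it occurred at 9 of 59 Or, 2 of 60 Gr and 4 of 60 Ir genes (15.3, 3.33 and 6.67%), against 8.81% of all genes, so Ir genes were above all genes in the long window and below them in the short one. The initiator letters TCAGT occurred at 44.1% of receptor genes and 38.8% of all, and GAGAG at 18.4 and 25.7%. These windows end at the annotated start, which for most receptors is the first coding base, so matches across or beyond it are not counted. The window from -45 to -15 bp is likewise placed from that base for most receptors, but not for most genes. Of genes with an annotated 5′ untranslated region, 2 of 16 Or, 2 of 21 Gr and 1 of 12 Ir had TATAAA there. These shares were 12.5, 9.52 and 8.33%, against 8.89% of all genes with such a region.

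Other genes of chemosensation, and the Myb-MuvB and dREAM regulators, were bound in different proportions. The share of all genes with a thresholded promoter summit was 35.4%. These lists were chosen with earlier results of these data known. The accessory receptor proteins had a thresholded promoter summit at 1 of 12 genes, the channel gene ppk11 at pooled rank 8591, and Orco itself had none, with the nearest at 735 bp. Odorant binding proteins, which carry odorants in the sensillum fluid, had one at 4 of 51 (7.84%; replicates 6.5% ± 2.26, SD, n = 3). They were Obp83g at rank 3102, Obp99b at 4351, Obp93a at 7271 and Obp83cd at 8459. The full list of replicate 1 held no promoter summit at Obp93a or ppk11. The other ionotropic glutamate receptors, the relatives of the Ir genes, had one at 1 of 13, the neuromuscular subunit gene GluRIIB at rank 5559. Transcription factors of olfactory neurons had one at 8 of 21 (38.1%; replicates 33.3% ± 4.76, SD, n = 3), beside 35.4% of all genes. These were Xbp1 at rank 589, zf30C at 1838, ap at 2750, en at 3705, ss at 5035, Dll at 5678, pdm3 at 7096 and pros at 8187. Of these, ss had a promoter summit in the full list of replicate 1 only, and ap had none in that of replicate 3. Genes of the Myb-MuvB and dREAM complexes had one at 9 of 10 (90%; replicates 76.7% ± 5.77, SD, n = 3), against 35.4% of all genes. The strongest were the retinoblastoma family gene Rbf2 at rank 638 and the E2F partner gene Dp at 683. Caf1-55, at 6398, had a promoter summit in the full list of replicate 1 only. Myb, at 8268, had one in all 3 full replicate lists, but among the strongest peaks of replicate 3 only. The only member without one, lin-52, had its nearest thresholded summit at 513 bp, just outside the window.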

How the data were processed

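ChIP-seq peaks of GFP-tagged CoRest were analysed for 3 biological replicates of 1 group. Per the deposited file listings, peak lists of the replicates and of their pooled alignments on dm6 each used the same 1 control file, and a list thresholded on reproducibility was derived from them. Which peak caller, threshold and aligner the authors used was not given in the sources used here. The deposited signal of each peak is the authors' value and served here for ranks alone. Summits were taken as deposited, 3 thresholded ones outside their interval included. Protein-coding genes (13945, with 19607 start sites) came from Ensembl release 115, sequence from RefSeq. Shares were compared over the 3 replicates, which the labels call biological, with exact sign-flip tests, using Python 3.11.15, pandas 2.3.3 and scipy 1.17.1; distances and tests were checked on made-up summits. Limits of a count of 0 are 3 counts. The receptor genes and the lists of other genes were chosen with earlier results of these data known. Named were receptor genes with a thresholded summit or with a promoter summit in 2 full replicate lists, their neighbours, and receptors of known role. Other receptor genes, those within 2 kb of a summit included, were named after their values were seen. Role groups, 5′ untranslated region classes, GC and start-site weighting and motif letters were added after the data were seen. No mock precipitation or input was analysed here.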

Additional observations from a re-analysis of the deposited data

How the results depend on the processing

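The difference between receptor and all genes kept its direction under every alternative setting tried (-21.7 to -47.3 percentage points). So did that to the neighbours (-14.8 to -38.1) and that in span density (-24.7 to -181 per Mb). Leaving out each replicate in turn gave -35.3 to -33.8, -24.3 to -23.9 and -50.7 to -49.3, with 0.5 as the smallest exact p that 2 replicates allow. The count of 2 receptor genes with a promoter summit was 0 with a window of 200 bp, 4 with 1000 bp, 8 with all pooled peaks, 0 with the strongest 4360 peaks, and 3, Or88a added, when any overlap of the peak interval counted. The count of 0 with a span summit was 9 with all pooled peaks. Classes of 5′ untranslated region were not among these settings, and the gap was much smaller among genes without such a region. In the strongest peaks of each replicate, receptors without one had a promoter share of 1.28% ± 0.444 (SD, n = 3). All genes without one had 2.92% ± 0.424 (SD, n = 3). In the main setting family differences came to a single gene. With all peaks Or minus Gr was -6.06 percentage points (exact p = 0.25). Or minus Ir was 1.16 percentage points with 1000 bp, the reverse of the main direction, and Or minus Ir and Or minus Gr were both 0 with 200 bp and with the strongest 4360 peaks. Gr minus Ir, 0 in the main setting, was 2.78 with 1000 bp, 4.44 with all peaks, -0.556 with only the outermost start, -0.497 with single start sites and -0.0282 with unique promoters. The cause was not tested. No paired analysis was possible because there is no second group of samples to pair; gene lists were compared within each replicate. Depth is unknown, so a missing peak is no sign of missing binding.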
